A study of Mus musculus with 14 samples.

Results

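Gastruloids are aggregates of mouse embryonic stem cells (mESCs) that break symmetry in culture and form tissues of the early trunk. The regions described here were p300 regions of gastruloids that lay at a gene end, overlapped an Sp5 region and overlapped no Zeb2 region, where a region of a protein is a stretch covered by peaks of both its replicate libraries. They were chosen by these measured peaks: 3095 regions met the rule, of 9588 p300 gastruloid regions at gene ends (32.3%) and of 53025 p300 gastruloid regions in all. A gene end was either end of one of 21887 protein-coding RefSeq genes, and the strongest p300 summit had to lie within 1 kb of it. No test was made of p300, Sp5 or Zeb2 in gastruloids at these regions, because the rule used those values.

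The rule leaves a different picture of Zeb2 than its short name gives. Of the 3095 regions, 2952 (95.4%) overlapped a peak of the first Zeb2 library, against 88.7% of all gene-end p300 regions, and 20 overlapped a peak of the second. Only 137 (4.43%) overlapped no Zeb2 peak in either list, against 11.1% of all gene-end p300 regions. The first Zeb2 list held 44310 peaks after removal of input peaks and the second 12222. When the second list was left out and any peak of the first counted as a Zeb2 region, 143 regions met the rule. The regions are therefore called Sp5 regions without a replicated Zeb2 region, and not regions without Zeb2.

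All cells came from the E14_triple reporter line, described by the submitters as carrying Brachyury-GFP and SOX17-RFP reporters, and grown in serum with LIF as mESCs. Gastruloids were started from 300 sorted cells per well in NDiff227, received 3 µM CHIR99021, a GSK3 inhibitor that activates Wnt signalling, after 48 h, and were harvested at 120 h. Every protein was tagged at its own gene, so each protein was read in its own edited line: p300 as endogenous p300-V5-miniTurboID with a V5 antibody, and RXRα, Sp5 and Zeb2 each with HA and an FKBP12F36V degron tag with HA antibodies. Each protein was profiled in gastruloids with 2 libraries, p300 and RXRα also in mESCs with 2, and the p300 line gave 1 input per cell type. The 12 lists of the immunoprecipitations held from 3236 to 75858 peaks, and the inputs 111 and 514. The labels do not say whether replicates were separate cultures, whether an edited line was 1 clone, or whether a degrader was added, and each gastruloid library pools cells of several fates. A peak missing from a bulk library cannot tell fewer bound cells from weaker binding in each cell.

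p300 is a histone acetyltransferase that acts as a coactivator and marks active enhancers and promoters. Sp5 is a zinc-finger factor of the Sp family, which binds GC boxes, and it is itself a direct target of Wnt and β-catenin signalling in the primitive streak and tail bud. Zeb2 is a zinc-finger and homeodomain repressor that binds E2 boxes and is known for its part in the neural and mesenchymal fates of the early embryo. RXRα is the nuclear receptor that pairs with retinoic acid receptors and other partners.

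The DNA just before the starts of genes with strong Sp5 peaks, and of Wnt and Sp/Klf genes, is shown for 8 of the regions. The 8 sequences below are the 250 bases before an annotated start, from RefSeq promoters on GRCm38.p6, written 5′ to 3′ on the strand of the gene. Capitals mark each GC box, the hexamer GGGCGG on either strand, the core bound by Sp and Klf factors. The first 4 were taken in order of Sp5 strength and the other 4 from the Wnt and Sp/Klf lists. Left out were genes absent from the RefSeq promoters, such as Lamtor3, Cdk5r1 and Rpl3, and the region at the other end of Cyb5r4. Starts that were not the outer end of a gene, or that lay inside another annotated gene, were also left out.
Prdm9: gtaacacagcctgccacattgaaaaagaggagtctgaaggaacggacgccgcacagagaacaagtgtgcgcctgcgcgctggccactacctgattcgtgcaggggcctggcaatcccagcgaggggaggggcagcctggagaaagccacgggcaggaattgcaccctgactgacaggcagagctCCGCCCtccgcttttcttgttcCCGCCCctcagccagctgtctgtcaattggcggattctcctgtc
Ap1s1: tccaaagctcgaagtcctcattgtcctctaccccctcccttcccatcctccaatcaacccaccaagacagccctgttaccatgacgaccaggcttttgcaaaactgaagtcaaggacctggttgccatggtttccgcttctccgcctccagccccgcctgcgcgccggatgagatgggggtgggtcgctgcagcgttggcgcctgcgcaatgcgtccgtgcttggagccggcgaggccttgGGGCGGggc
Psmd14: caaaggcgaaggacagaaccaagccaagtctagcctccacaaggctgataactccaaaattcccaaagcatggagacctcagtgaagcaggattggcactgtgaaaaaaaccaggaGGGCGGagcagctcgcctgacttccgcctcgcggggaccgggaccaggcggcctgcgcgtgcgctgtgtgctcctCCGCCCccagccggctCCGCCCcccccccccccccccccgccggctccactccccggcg
Clp1: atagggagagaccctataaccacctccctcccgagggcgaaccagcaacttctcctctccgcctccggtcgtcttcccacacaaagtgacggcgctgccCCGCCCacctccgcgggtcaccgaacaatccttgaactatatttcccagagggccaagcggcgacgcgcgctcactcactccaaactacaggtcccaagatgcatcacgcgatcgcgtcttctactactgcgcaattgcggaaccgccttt
Klf4: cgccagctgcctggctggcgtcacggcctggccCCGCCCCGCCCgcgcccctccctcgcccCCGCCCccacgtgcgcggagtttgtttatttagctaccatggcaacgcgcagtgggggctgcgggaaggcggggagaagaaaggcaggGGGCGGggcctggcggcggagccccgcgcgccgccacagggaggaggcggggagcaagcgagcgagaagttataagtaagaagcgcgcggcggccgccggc
Tle4: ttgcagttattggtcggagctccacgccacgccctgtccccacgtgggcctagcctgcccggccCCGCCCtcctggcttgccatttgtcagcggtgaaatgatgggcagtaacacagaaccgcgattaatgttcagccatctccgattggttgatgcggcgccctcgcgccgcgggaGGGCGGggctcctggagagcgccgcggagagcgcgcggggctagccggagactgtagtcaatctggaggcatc
Ctnnbip1: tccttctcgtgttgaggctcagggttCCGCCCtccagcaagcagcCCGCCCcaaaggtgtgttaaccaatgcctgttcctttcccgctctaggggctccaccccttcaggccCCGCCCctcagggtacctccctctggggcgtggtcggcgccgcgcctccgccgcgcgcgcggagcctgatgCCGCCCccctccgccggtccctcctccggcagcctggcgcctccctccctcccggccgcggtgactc
Fzd5: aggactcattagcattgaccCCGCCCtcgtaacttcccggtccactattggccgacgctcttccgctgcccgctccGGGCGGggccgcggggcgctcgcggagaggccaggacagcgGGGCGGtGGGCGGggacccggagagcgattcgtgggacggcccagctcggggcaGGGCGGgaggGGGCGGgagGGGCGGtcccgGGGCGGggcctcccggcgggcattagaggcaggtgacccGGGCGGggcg
They lie at chr17:15564355-15564604 (minus strand), chr5:137046109-137046358 (minus), chr2:61711444-61711693 (plus), chr2:84727288-84727537 (minus), chr4:55532476-55532725 (minus), chr19:14598184-14598433 (minus), chr4:149517991-149518240 (plus) and chr1:64737751-64738000 (minus). Fzd5, a frizzled receptor for Wnt ligands, holds 9 GC boxes in this window. Klf4 and Ctnnbip1, an inhibitor of β-catenin binding to Tcf factors, hold 4 each, and Psmd14 holds 3. Prdm9 and Tle4, a Groucho-type corepressor, hold 2 each, and Ap1s1 and Clp1 hold 1 each. At 7 of the 8 genes the p300 region covers all 250 printed bases and every GC box in them. At Prdm9 it covers only 93 of them and neither GC box, and its p300 summit lies 352 bp upstream of the start, outside the window. The p300 summit also lies outside the printed bases at Fzd5, 572 bp upstream of the start, and at Psmd14, 187 bp downstream of it.

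Sp5 summits sat just upstream of the start, and p300 summits around it. Of the 3095 regions, 2425 had a strongest p300 summit within 1 kb of a start in the RefSeq promoter table, which gives strands for 17492 genes. Their p300 summits lay at a median of 9 bp downstream of the start, with the middle of the distribution from -135 to 134 bp (25th to 75th percentile), and 48.5% were upstream. The Sp5 summits lay at a median of -41 bp in the first library and -36 bp in the second, against 25 and -6 bp for the p300 summits of the first and second p300 libraries. Within a region the Sp5 and p300 summits were a median of 141 bp apart with the first libraries and 115 bp apart with the second. Gene-end regions with both Sp5 and Zeb2 gave Sp5 medians of -40 and -29 bp, so the placement did not set the 3095 regions apart.

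**Figure D1:**
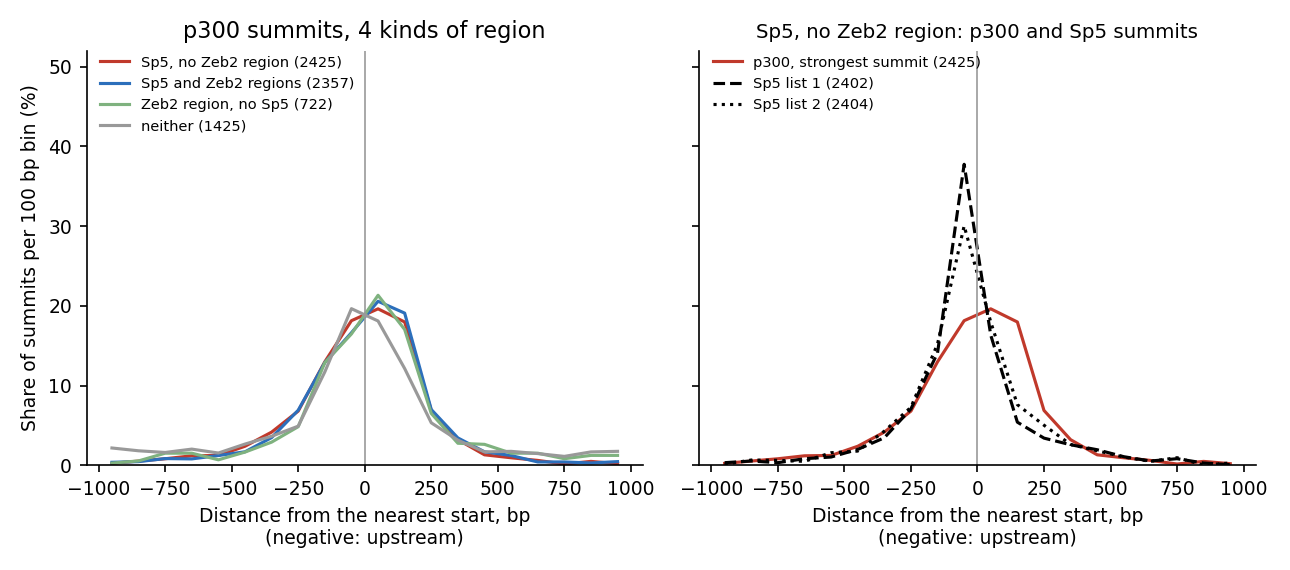
Share of peak summits (%) in 100 bp bins against distance from the nearest annotated start in bp, negative upstream; numbers in the keys count the summits. Left, p300 summits of the 4 kinds of gene-end region; right, p300 and Sp5 summits of the Sp5 regions without a replicated Zeb2 region, where the Sp5 curves are narrower and peak in the bin just upstream of the start.

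The regions had a median width of 914 bp (711 to 1141 bp, 25th to 75th percentile), between the 987 bp of the gene-end regions with Sp5 and Zeb2 and the 605 bp of those with neither. The nearest gene end lay a median of 155 bp from the summit. It was a start in 2452 regions and the other end of the gene in 64, and the strand was not given for 579. In 2574 regions 1 gene had an end within 1 kb, in 506 there were 2 and in 15 there were 3. Starts on both strands lay within 1 kb of the summit in 7.75% of the regions and in 7.41% of all gene-end p300 regions. The 3095 regions had 3068 different nearest genes, and 27 of these had 2 regions, among them Gsk3b, a kinase of the β-catenin destruction complex. The share of gene-end p300 regions that met the rule ran from 26.1% on chromosome 14 to 39.0% on chromosome 17, and there were none on Y, which had no gene-end p300 region.

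The region farthest from a gene end within the 1 kb limit, at Maff, a small Maf transcription factor, had its summit 997 bp away and Sp5 folds of 7.09 and 5.46. The nearest region beyond the limit, at Hbp1, a repressor of the HMG family, lay 1002 bp away with Sp5 folds of 12.2 and 5.21. Both had p300 peaks in the 2 mESC lists as well. The limit was measured from the ends in the gene table. The nearest start in the promoter table was 98 bp from the Maff summit and 717 bp from the Hbp1 summit.

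Peak strength is given as the authors' fold over local background, with the number of DNA fragments at the summit recovered from the deposited fold and p. The p300 peaks of the 3095 regions had median folds of 5.18 (28 fragments) and 5.63 (24 fragments) in the first and second gastruloid libraries. Their Sp5 peaks had median folds of 8.71 (36 fragments) and 5.98 (28 fragments). The Zeb2 peaks of the first library had a median fold of 5.28 (23 fragments), which lay at percentile 60.6 of that list, against 7.74 (39 fragments) and percentile 86.7 in gene-end regions with both Sp5 and Zeb2. The Zeb2 peaks of the regions were thus present in the longer list, and lower there than at regions that also appeared in the shorter one. These values follow from the rule and are a description. At the median, 23 fragments carry a counting error of about their square root, so the absence of a peak from 1 list is not evidence that a protein is absent.

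**Figure D2:**
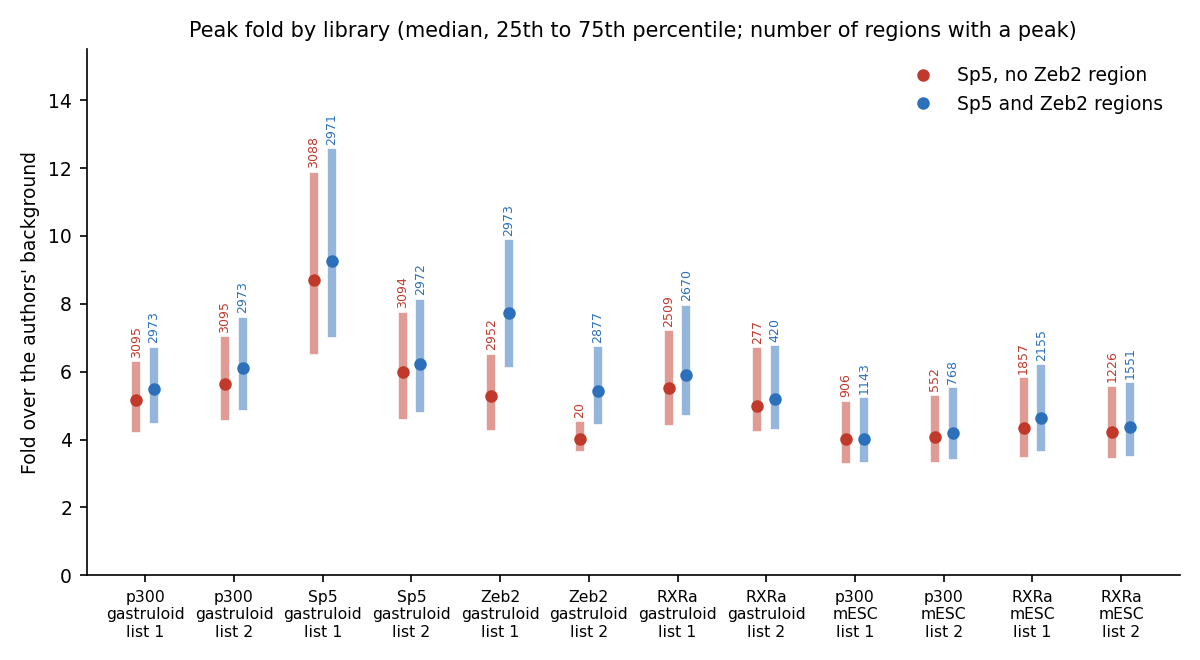
Fold over the authors' local background (linear axis) in each of the 12 immunoprecipitation lists, as the median (point) and 25th to 75th percentile (bar) over the regions with a peak in that list, whose number is printed above each bar. In the first Zeb2 list the Sp5 regions without a replicated Zeb2 region have a median of 5.28 and the regions with both proteins 7.74, while the 2 kinds lie close together in the p300, Sp5, RXRα and mESC lists.

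The strongest Sp5 peaks among the regions lay at genes of diverse function. At Prdm9, the meiotic histone methyltransferase that places recombination sites, the Sp5 folds were 37.4 and 26.5, from 416 and 326 fragments. The p300 folds there were only 3.70 and 4.11, and no peak was found in mESCs for p300 or RXRα. At Lamtor3, a scaffold of the lysosomal Ragulator complex, the Sp5 folds were 40.1 and 24.9, with p300 folds of 6.15 and 6.55. At Ap1s1, a subunit of the AP-1 clathrin adaptor, they were 31.5 and 20.8, with p300 folds of 7.17 and 9.04 in gastruloids. High Sp5 thus went with low as well as middling p300 folds at these first 3 genes.

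Psmd14, the deubiquitinase of the proteasome lid, had Sp5 folds of 28.5 and 18.6 and p300 folds of 4.73 and 3.93. Rpl3, a protein of the large ribosomal subunit, had Sp5 folds of 27.4 and 19.4. Clp1, an RNA kinase of tRNA and mRNA processing, had Sp5 folds of 28.2 and 17.7. None of these 3 had a p300 peak in either mESC list. Cdk5r1, the p35 activator of Cdk5, had Sp5 folds of 27.6 and 18.8 and the highest p300 fold of the first gastruloid library in this group, 11.8, with p300 peaks in both mESC lists (5.15 and 3.75). The other 8 of the 15 strongest were Cyb5r4 (at its other end), Zfp408, Cep112, Camkmt, Cops6, Usp28, Stx16 and Mfge8, with Sp5 folds from 24.8 to 31.8 in the first library and from 17.5 to 20.4 in the second. All 15 had a peak in the first Zeb2 list, at folds from 3.70 to 6.94, and none in the second. Of the 15, 11 had a peak in the first RXRα gastruloid list and none in the second.

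The regions were also ranked by their p300 peaks in gastruloids. At Dll3, a Notch pathway ligand of the presomitic mesoderm, the p300 folds were 18.02 and 21.6, from 248 and 232 fragments, with Sp5 folds of 9.53 and 7.12. At Klf4, a Krüppel-like factor of pluripotent and epithelial cells, the p300 folds were 14.02 and 17.3 and the Sp5 folds 13.8 and 11.1. At Txnip, an inhibitor of thioredoxin, the p300 folds were 14.99 and 16.04 in gastruloids and 8.89 and 6.73 in mESCs. Dll3 and Klf4 had no p300 peak in either mESC list, and Txnip had one in both. The other 7 of the 10 strongest were Lrrc74b, Ifitm2, Myrip, Slc25a1, Timp4, Rpe and 4921536K21Rik, with p300 folds from 13.1 to 17.5 in the first library and from 14.8 to 20.0 in the second. No gene was in both the first 15 by Sp5 and the first 10 by p300. Lists so short beside the number of regions would seldom share a gene in any case. This does not show that Sp5 and p300 strength go apart.

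Whether p300 was already at these gene ends in undifferentiated cells could be read from the p300 mESC libraries, which the rule did not use. Of the 3095 regions, 417 (13.5%) overlapped a p300 peak in both mESC lists, against 16.2% of all gene-end p300 gastruloid regions. A peak in at least 1 of the 2 lists was found at 1041 (33.6%), against 34.4% of all gene-end p300 regions. None was found in either at 2054 (66.4%), against 65.6%. The first mESC list covered 906 regions (29.3%, against 30.2%) and the second 552 (17.8%, against 20.4%). The share in both lists was near the background, and below the 20.0% of gene-end regions with Sp5 and Zeb2. That order held in each tercile of p300 gastruloid strength among gene-end regions: 7.67% against 8.67% in the lowest, 12.3% against 15.8% in the middle and, in the highest, 201 of 957 regions against 30.2%. The regions in the highest tercile with neither Sp5 nor Zeb2 gave 27.6%. All gene-end p300 regions gave 8.73%, 13.9% and 26.0% from lowest to highest tercile. Regions with Zeb2 without Sp5 gave 7.86%, 11.7% and 21.2%, close to the 3095 regions in each tercile, so the lower share was not particular to the 3095. These shares are descriptions of 2 libraries, with no test, since regions are not replicates.

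**Figure D3:**
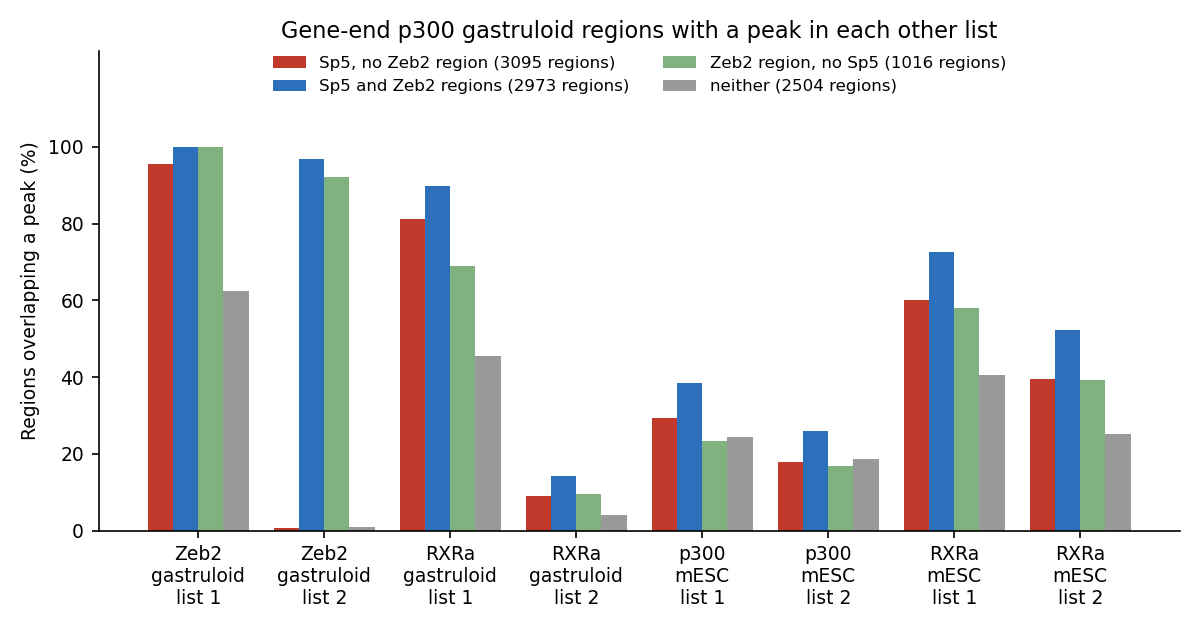
Share of gene-end p300 gastruloid regions (%) that overlap a peak in each list not used to define p300 or Sp5, for the 4 kinds of region. The first Zeb2 list covers 95.4% of the Sp5 regions without a replicated Zeb2 region and the second 0.646%, and the first and second RXRα gastruloid lists cover 81.1% and 8.95%.

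The highest p300 mESC peaks of the regions lay at metabolic, membrane and secretory genes. At Rpe, the ribulose-phosphate epimerase of the pentose phosphate pathway, the p300 folds were 31.6 and 30.4 in mESCs and 15.1 and 14.8 in gastruloids. At Ifitm2, an interferon-induced membrane protein, they were 26.0 and 26.0 in mESCs and 17.5 and 17.1 in gastruloids. At Slc25a1, the mitochondrial citrate carrier, they were 22.1 and 21.6 in mESCs and 15.0 and 18.5 in gastruloids. Each of these 3 regions had a high peak in all 4 p300 libraries. At Porcn, the acyltransferase that lipidates Wnt ligands, they were 20.2 and 20.4 in mESCs and 9.78 and 12.5 in gastruloids. Lrpap1, a chaperone of LDL-receptor family proteins, had 21.03 and 17.8 in mESCs. Folds of separate libraries depend on their depth and background, so they are set side by side and not compared. The strongest gastruloid p300 regions with no mESC peak were Dll3, Lrrc74b, Myrip, Klf4 and Mcts1, whose folds ran from 12.01 to 18.02 in the first library and from 14.1 to 21.6 in the second.

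RXRα was recorded at most of the regions in the longer gastruloid list only. The first RXRα gastruloid list covered 2509 of the 3095 (81.1%), against 73.2% of all gene-end p300 regions. The second covered 277 (8.95%), against 9.35%. The lists held 29867 and 3111 peaks. An RXRα region found in both was present at 270 (8.72%), against a background of 8.94%. In mESCs the corresponding count was 1085 (35.1%), against 35.6%. Both replicated shares were thus near the background. Gene-end regions with Sp5 and Zeb2 had higher shares in each p300 tercile, 18.3% against 13.5% for gastruloids and 54.3% against 42.1% for mESCs in the highest. Taking p300 in both mESC lists and the RXRα regions of both cell types together, 1796 regions (58.0%) had none of the 3 and 59 had all 3. These joint counts were not made over all gene-end p300 regions, so they cannot be read as particular to the 3095.

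Ranked by the lower of their percentiles in both gastruloid lists, the RXRα peaks were led by Cyb5r4, a cytochrome b5 reductase, with folds of 29.6 and 18.2 at its start and mESC folds of 26.1 and 21.4. This start is a different region from the one at the other end of Cyb5r4, which had only 4.28 in the first RXRα gastruloid list and no mESC peak. At Suox, the sulfite oxidase, the gastruloid RXRα folds were 35.7 and 14.6 and the mESC folds 7.47 and 5.97. Rps3a1, Alkbh7 and Atxn2 followed, with 20.9 to 30.8 in the first library and 13.5 to 14.7 in the second. In the first gastruloid list alone Iqck (36.4), Suox and Alkbh7 were higher than Cyb5r4. By the same ranking in mESCs the first were Cyb5r4, Iqck, Pyroxd1, U2surp and Stard6, with 21.5 to 26.1 and 18.2 to 21.4. The genes of this mESC ranking had RXRα peaks in both mESC libraries by the way they were picked. Suox, Rps3a1, Alkbh7 and Atxn2, which were picked in gastruloids only, had peaks in both as well.

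Regions differed in how many of the 12 lists covered them. Most were covered in 6, 7 or 8 lists (668, 638 and 631 regions), 48 were covered in 4 and 61 in 11, and none in 12. By the rule nearly all were covered in both p300 and both Sp5 gastruloid lists, and few in the second Zeb2 list. The low end of 4 and the absence of 12 thus follow largely from the rule. These counts were not made over all gene-end p300 regions. At Pyroxd1, a pyridine nucleotide-disulfide oxidoreductase, Sp5 folds were 24.5 and 16.7, RXRα folds 25.2 and 8.01 in gastruloids, and p300 folds 5.99 and 5.42 in mESCs. Sntb2, a syntrophin, and Agfg1 were also covered in every list but the second Zeb2 list. Among the 137 regions with no Zeb2 peak in either list, the strongest by Sp5 were at Pip4k2b, a phosphoinositide kinase (23.4 and 18.2), Hs6st1, a heparan sulfate sulfotransferase (20.8 and 13.7), and Dmpk, a serine/threonine kinase (20.5 and 12.7). Of these 137, 8.03% were in both p300 mESC lists, 2.19% had an RXRα gastruloid region and 11.7% an RXRα mESC region. Over the 3095 regions these shares were 13.5%, 8.72% and 35.1%, and over all gene-end p300 regions 16.2%, 8.94% and 35.6%. Among the 3095 regions the shares rose with p300 tercile, and the 137 were not matched for p300 strength. Why their shares were lower was not tested.

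Promoters at the regions were rich in GC boxes. The 2417 promoters of the RefSeq table at these regions (300 bases, 250 before and 50 after the start) had a median GC content of 63.7%, against 56.3% in all 17492 promoters, and a median ratio of observed to expected CpG of 0.811 against 0.577. Promoters at all gene-end p300 regions were similar, at 62.3% and 0.802, and those at regions with Sp5 and Zeb2 had 64.3% and 0.829. This composition thus did not set the regions apart. A GC box on either strand was present in 82.4%, against 46.3% of all promoters. It was present in 80.6% of the promoters at gene-end regions with Sp5 and Zeb2, 53.9% at those with Zeb2 without Sp5 and 47.7% at those with neither. Because GC-rich DNA holds more such hexamers by composition, the share was also taken within terciles of GC content set on gene-end promoters. It was 63.5%, 84.5% and 94.6% from lowest to highest, against 21.7%, 73.0% and 90.3% in all promoters and 29.1%, 58.4% and 81.0% at regions with neither protein. The variant GGGCGTG was present in 21.3%, near the 21.8% at regions with Sp5 and Zeb2 and above the 11.1% of all promoters.

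The E2 box, the Zeb and Snail core CACCTG, was less frequent at these promoters than at those of any other kind of gene-end region. It was present in 11.5%, against 22.1% at regions with Sp5 and Zeb2, 26.9% at regions with Zeb2 without Sp5, 15.0% at regions with neither and 19.3% in all promoters. In the GC terciles the shares were 10.2%, 12.5% and 11.5%, against 19.8%, 22.5% and 23.3% at regions with Sp5 and Zeb2, so the lower share was seen at each level of GC. The 2 kinds of Sp5 region thus had near equal shares of GC boxes and unequal shares of E2 boxes. A match to 6 letters is not a bound site, and no match says only that these letters were not in this window.

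Of the other motifs searched on both strands, CTTTGA, the core of Tcf and Lef elements of Wnt target genes, was present in 9.93% against 14.9% of all promoters, and its longer form CTTTGAT, which contains it, in 2.19% against 3.28%. Within the GC terciles the shares for CTTTGA were 19.1%, 8.81% and 4.11%, against 20.3%, 9.53% and 4.69% of all promoters, a smaller gap within each tercile than over all promoters. TATAAA, the TATA box, was in 5.25% against 13.3%, and AGGTCA, the core hexamer of nuclear receptor elements, in 10.7% against 14.5%. CCGGAAG, the core of Ets factor sites, was in 21.1% against 11.9%, AAGATGGC, bound by YY1, in 5.88% against 3.21%, and CACGTG, the E-box of Myc and USF factors, in 11.7% against 7.91%. GCGCATGC, part of the Nrf1 element, was in 6.12% against 3.61%, and TGACGTCA, the cAMP response element, in 3.19% against 2.33%. CCAAT, bound by NF-Y, was near equal at 38.1% against 39.2%, as was TACAATTCC, part of the Znf143 element, at 0.538% against 0.549%. Promoters at all gene-end p300 regions held TATAAA in 6.21%, AGGTCA in 10.9%, CCGGAAG in 19.5%, AAGATGGC in 5.17% and CACGTG in 11.2%. They held GCGCATGC in 6.34% and TGACGTCA in 3.88%, both above the shares given here for the regions. For these motifs the gaps from all promoters were thus largely shared by gene-end p300 promoters in general. The motifs of this paragraph other than CTTTGA were not counted within GC terciles.

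**Figure D4:**
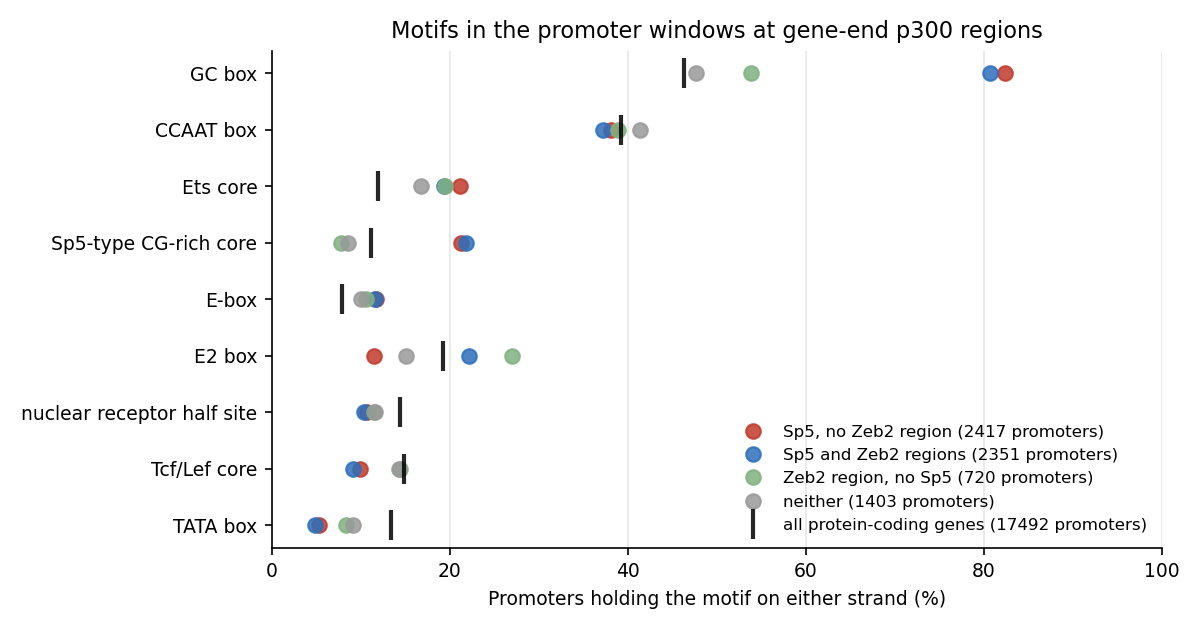
Share of promoters (%) holding each motif on either strand in the window of 300 bases, for promoters at the 4 kinds of gene-end p300 region (points) and for all protein-coding promoters (vertical marks). The GC box separates both kinds of Sp5 region (82.4% and 80.6%) from the rest, and the E2 box separates the regions without a replicated Zeb2 region (11.5%) from those with one (22.1% and 26.9%).

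As a share of all genes of a list, genes of DNA replication, translation, protein breakdown and splicing were counted most often. A gene was counted when 1 of its ends lay within 1 kb of the summit of one of the 3095 regions, which held for 3554 of 21887 protein-coding genes (16.2%), and for 34.8% of the 10227 genes with any p300 gastruloid region at an end. Of the 26 lists, 20 lay above the first share and 12 above the second. Of all genes, 46.7% had a p300 region at an end. By the second share DNA replication was again first, followed by the short lists of Wnt ligands and neural tube genes given below. Of 45 DNA replication genes, 21 were counted, which is 58.3% of the 36 with a p300 region at an end. They include the helicase subunits Mcm2, Mcm3 and Mcm6, the GINS subunits Gins1, Gins2 and Gins4, and the polymerase genes Pola1, Pold1 and Pole. Pole, the leading-strand polymerase, had Sp5 folds of 14.7 and 8.65 and p300 folds of 4.43 and 5.15. Mcm2 had Sp5 folds of 10.9 and 7.68 and p300 folds of 4.68 and 3.89. Neither had a p300 peak in an mESC list. The counts of this and the next lists fall with the number of regions: when the second Zeb2 library was left out and 143 regions met the rule, 1 DNA replication gene and 3 cytosolic ribosomal protein genes were counted.

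Of 86 cytosolic ribosomal protein genes, 39 were counted (53.4% of the 73 with a p300 region). After Rpl3 the strongest by Sp5 were Rpl12 (13.9 and 9.91), Rpl15 (13.1 and 10.6), Rps29 (10.8 and 9.77) and Rps12 (15.0 and 8.03). None of the 40 regions at these genes was in both p300 mESC lists, and 5 were in 1 of them. Over the 3095 regions 13.5% were in both and 33.6% in at least 1, and over all gene-end p300 regions 16.2% and 34.4%. Several shorter lists also had no region in both. The p300 regions at ribosomal protein genes outside the rule were not counted. Of 71 translation initiation and elongation genes, a list taken by symbol that also holds kinases and methyltransferases of these factors, 30 were counted (50.0% of 60). Eif4g1, the scaffold of the cap-binding complex, had Sp5 folds of 18.3 and 11.04. Of 40 proteasome genes, 15 were counted (48.4% of 31), led after Psmd14 by the ATPase Psmc4 (24.9 and 13.9) and the ubiquitin receptor Psmd4 (23.9 and 11.7). Of 89 splicing factor genes, 32 were counted (43.8% of 73), among them Sf3b4 (16.6 and 9.73) and U2af2 (13.6 and 8.04).

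Other housekeeping lists lay below the 34.8% of all genes with a p300 region. Of 82 genes of RNA polymerase II, its general factors and Mediator, 22 were counted (33.3% of 66), with Polr2a, the largest subunit, at Sp5 folds of 18.9 and 13.1. Of 53 genes of mitosis and cell cycle kinases, 14 were counted (32.6% of 43). Of 98 genes of the respiratory chain and ATP synthase, 20 were counted (27.8% of 72). Their 21 regions held 8 of the replicated RXRα gastruloid regions, among them those at Atp5pb (23.3 and 8.27) and Cox5b (18.9 and 9.07). Such a region was present at 8.72% of the 3095 regions and at 8.94% of all gene-end p300 regions. This was the highest such count of the 26 lists, and p300 regions at these genes outside the rule were not counted. Of 77 mitochondrial ribosome genes, 17 were counted (25.4% of 67), and 9 of 35 tRNA synthetase genes (32.1% of 28). Of 96 histone genes, 7 were counted (18.4% of 38).

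**Figure D5:**
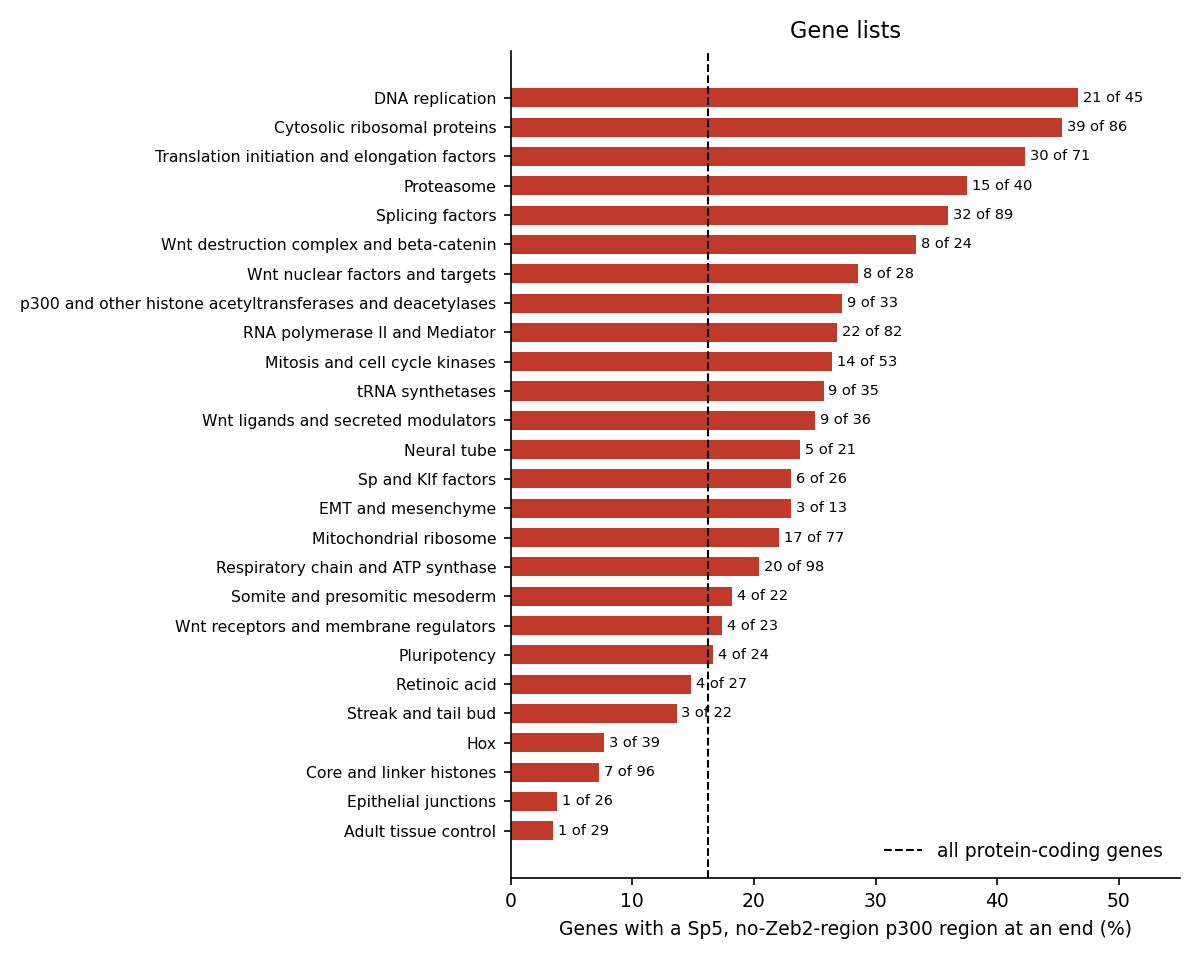
Share of the genes of each list (%) with one of the 3095 regions at an end, with the counts beside the bars; the dashed line is the 16.2% of all protein-coding genes. DNA replication (21 of 45) and cytosolic ribosomal proteins (39 of 86) are highest, and the adult tissue genes (1 of 29) lowest.

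The Wnt pathway, which the CHIR99021 pulse activates, was read in 4 lists, of which the receptors lay below the 34.8% of all genes with a p300 region and the other 3 above it. Of 36 genes of ligands and secreted modulators, 9 were counted (56.3% of the 16 with a p300 region): the ligands Wnt3, Wnt4, Wnt5b, Wnt8b and Wnt9a, the ligand acyltransferase Porcn, the antagonists Sfrp2 and Sfrp4, and Notum, which removes the lipid from Wnt ligands. The count was 5 with −log10 q of at least 5, 5 within 500 bp of a gene end, 2 with lists of equal length and 1 with no Zeb2 peak in either list. Their Sp5 peaks were low, with medians of 5.51 and 4.78 over the 9 regions. Wnt3, a ligand of the primitive streak, had Sp5 folds of 3.17 and 3.54 and p300 folds of 2.97 and 2.95, among the lower values of the named genes.

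Of 23 genes of receptors and membrane regulators, 4 were counted (28.6% of 14): the frizzled receptors Fzd1, Fzd5 and Fzd7 and the inhibitor Apcdd1. Fzd5 had Sp5 folds of 12.4 and 7.23 and p300 folds of 5.79 and 8.03, and Fzd7 had Sp5 folds of 11.8 and 6.31. No region of these 4 had a p300 peak in an mESC list. Of 24 genes of the destruction complex and β-catenin, 8 were counted (44.4% of 18): Apc, Btrc, Csnk1d, Dvl2, Gsk3a, Gsk3b, Nkd1 and Tnks. Csnk1d, a casein kinase, had Sp5 folds of 11.7 and 9.71. Of 28 nuclear factors and targets, 8 were counted (38.1% of 21). Tcf7, a Tcf factor that is also a Wnt target, had Sp5 folds of 15.4 and 9.56, and Ctnnbip1 had 15.0 and 7.40. Tcf7l1, Tcf7l2, Tle4, Ctbp2, Myc and Sp5 were the others.

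The start of the Sp5 gene was itself one of the regions. Its p300 folds were 11.4 and 11.1 in gastruloids, from 242 and 182 fragments, with no p300 peak in mESCs. Its Sp5 folds were 4.82 and 6.24, from 31 and 41 fragments, and its Zeb2 fold in the first library was 3.68. Of 26 Sp and Klf genes, 6 were counted (30% of the 20 with a p300 region, below the 34.8% of all genes). Beside Sp5 they were Sp1 (Sp5 folds of 8.50 and 5.35), Sp4 (8.404 and 4.92), Klf2 (13.1 and 6.22), Klf4 and Klf7 (7.98 and 4.80). Sp1, Sp4 and Klf7 had p300 peaks in both mESC lists, and Klf2, Klf4 and Sp5 had none. Of the 33 genes of histone acetyltransferases and deacetylases, 9 were counted (40.9% of 22), among them Hdac1, Hdac2 and Hdac3, and p300's own gene was not.

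Lists of trunk and patterning genes lay on both sides of the 34.8%, and each holds few genes with a p300 region. Of 22 somite and presomitic mesoderm genes, 4 were counted (33.3% of 12), namely Dll3, Hes7, Lfng and Tbx18, and 1 was counted within 500 bp of a gene end. Hes7, a repressor of the segmentation clock, had Sp5 folds of 15.2 and 8.44, from 358 and 203 fragments, and p300 folds of 6.34 and 8.24. Lfng, a glycosyltransferase that modifies Notch, had p300 folds of 7.08 and 9.34 and no Zeb2 peak in either list. None of these 4 regions had a p300 peak in mESCs or an RXRα peak in gastruloids. Of 22 streak and tail bud genes, 3 were counted (21.4% of 14): Sp5, Wnt3 and Nkx1-2. Of 39 Hox genes, 3 were counted (15% of 20), Hoxc13 and the neighbours Hoxb7 and Hoxb8, which share 1 region with p300 folds of 9.002 and 9.54 from 452 and 385 fragments and low Sp5 folds of 4.04 and 3.38. Both Hox regions lacked Zeb2 peaks in either list.

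Of 21 neural tube genes, 5 were counted (55.6% of 9): Sox1, Sox3, Irx3, Neurog1 and Zic1. Neurog1, a proneural factor, had Sp5 folds of 8.07 and 9.59 and p300 peaks in both cell types. Of 27 retinoic acid genes, 4 were counted (28.6% of 14), among them Dhrs3, Nrip1 and Rxrb. Of 24 pluripotency genes, 4 were counted (44.4% of 9), Klf2, Klf4, Lin28a and Tbx3, and Lin28a, which blocks let-7 maturation, had p300 folds of 5.62 and 9.47 in gastruloids and 7.16 and 5.33 in mESCs. Of 13 genes of the epithelial to mesenchymal transition, 3 were counted (42.9% of 7), Cdh2, Vim and Snai1. Snai1, a repressor that binds E2 boxes, had RXRα folds of 16.6 and 6.74 in gastruloids and low Sp5 folds of 4.04 and 4.45. Of 26 epithelial junction genes, 1 was counted, Cgn (Sp5 folds of 17.2 and 11.1), of the 13 with a p300 region at an end. There were 2 with −log10 q of at least 5 and 0 within 500 bp of a gene end. Of 29 genes of adult tissues kept as a contrast, 1 was counted (25% of 4), Sftpc, whose end lies beside Bmp1.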

How the data were processed

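Chromatin immunoprecipitation was read from 14 libraries, 12 immunoprecipitations and 2 inputs, grouped into 8 sets from the labelled antibody and cell type. The authors deposited 1 list of peaks per library, and per the submitters' processing notes used MACS2 2.2.7, BWA 2.2.1 and fastp 0.20.1 on GRCm38.p6; the roles of these tools and the control used were not given in the sources used here. The deposited score is 10 times the −log10 q rounded down, the authors' fold is the ratio of summit signal to local background, and the deposited −log10 p and −log10 q are MACS2's. Total reads per library are unknown; fragments at each summit were recovered from the deposited fold and p, and came out whole within 0.01 for at least 98.2% of the peaks of each library. Peaks touching an input peak were dropped, peaks of 2 replicates overlapping by at least 1 bp were merged into regions, and the strongest summit was that with the highest −log10 q. Percentiles are ranks of fold within a list. Scripts used Python 3.11.15, numpy 2.4.6, pandas 2.3.3 and scipy 1.17.1, and were tested on simulated data.

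Only counts, medians and shares were compared, with no p-value, beside all gene-end p300 regions. The regions and the 26 gene lists, partly matched by symbol pattern, were chosen with earlier results of these data known. Named are the 15 regions highest by the lower of both Sp5 percentiles, the 10 highest likewise by p300 in gastruloids, the 5 highest by p300 in mESCs and the 5 strongest without an mESC peak, the 5 highest by RXRα in each cell type, those at the 1 kb limit, the 3 covered in most lists, the 3 strongest without a Zeb2 peak, and up to 5 per gene list by Sp5, with full lists of counted genes where short. That printed starts lie at the outer end of a gene and in no other gene was required after the data were seen. Promoters are RefSeq's on GRCm38.p6. The alternatives in the closing section varied overlap, q threshold, input removal, distance, list length, Zeb2 rule, motif window and replicates. The name and values of 1 counted gene are not reported here.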

Additional observations from a re-analysis of the deposited data

How the results depend on the processing

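The number of regions was 3095 as reported, 137 when no Zeb2 peak was allowed in either list and 189 when the p300, Sp5 and Zeb2 gastruloid lists were all cut to 11932 peaks by −log10 q, a setting that shortens the p300 and Sp5 lists as well as the Zeb2 lists. It ran from 143 (without the second Zeb2 library) to 4008 (without the second Sp5 library) when 1 library was left out. It stayed within 1.5 times the reported number under the other planned settings.

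The share in both p300 mESC lists was 10.1% with −log10 q of at least 5, 49.2% with equal lists and 8.03% with no Zeb2 peak, and 8.39% to 29.3% with 1 library left out. Over all gene-end p300 regions it was 12.7%, 50.4% and 16.2% under these 3 settings. The share with an RXRα gastruloid region was 5.60%, 20.6% and 2.19% under the same 3 settings, and 2.10% to 81.1% with 1 library left out (all gene-end regions: 4.81%, 17.6% and 8.94%); the highest value came without the second RXRα library, where all gene-end regions gave 73.2%. The share with an RXRα mESC region was 25.7%, 46.6% and 11.7%, and 32.0% with an overlap of 50% of the shorter interval, and 12.6% to 60% with 1 library left out. Over all gene-end regions it was 25.1%, 49.9%, 35.6% and, with that overlap, 33.0%.

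The share of promoters with a GC box was 84.3%, 86.8% and 85.7% under the same 3 settings and 62.6% in the 100 bases before the start, with 76.7% to 85.3% when 1 library was left out. The share with an E2 box was 6.62% with equal lists, 3.06% with no Zeb2 peak and 3.19% in the 100 bases, and 2.94% to 11.8% when 1 library was left out. In the same 100 bases a GC box was in 33.6% and an E2 box in 6.46% of all promoters. Promoters at all gene-end p300 regions gave 53.3% and 5.23% there. Of the 26 gene lists, 20 had a larger share of counted genes than all genes, and 12 when only genes with a p300 region at an end were taken. The first count was 11 with no Zeb2 peak and 12 to 21 with 1 library left out, and without the second Zeb2 library 3 cytosolic ribosomal protein genes and 1 DNA replication gene were counted. The gene list counts, and the settings other than the motif window for the GC and E2 boxes, were added after seeing the data. No paired analysis was possible because no result comes from a test. Median summits of 10 to 36 fragments at these regions, over the 12 lists, limit what absence from a list can show.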
